A study of Mus musculus with 2 samples.

Results

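The genes described here are *C3*, *C4b*, *Cfb*, *C1s1*, *C1ra*, *Serping1* and *Cd55*, 7 of the 32285 genes counted in single femoral cells of mice, taken by their symbols from the count tables of both libraries. They encode components and inhibitors of complement, and were followed through the fibroblast-like, tendon-like, osteoblast-like, chondrocyte-like and endothelial-like cells of the femur. Each library pooled the femurs of 6 male C57BL/6J mice aged 7 weeks. The calcitriol library came from mice given 2.5 µg per kg of calcitriol (1,25-dihydroxyvitamin D3, the hormone form of vitamin D) into a vein on 3 consecutive days and killed 24 hours after the last dose, and the untreated library came from mice for which no injection is described, so that the drug and the injections cannot be told apart. In both groups the epiphyses and the marrow were removed, cells were released by collagenase and EGTA, and CD45+ cells were depleted. With 1 library per group there is no replicate, and no test between the groups was possible. A class is named, with "-like", from its marker genes. Levels are given as CPM, the UMIs (unique molecular identifiers, which mark single captured mRNAs) of a gene scaled to 1000000 UMIs of the class, ratios as calcitriol over untreated on the log2 scale, and all intervals are exact 95% intervals that cover counting error only. A gene was compared in a class where it had at least 50 UMIs over both libraries, and was called higher or lower where the ratio was at least 2-fold with an interval that left out 0.

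Complement is a cascade of plasma proteins, made largely by the liver, that tags and attacks foreign or damaged cells. Its classical arm starts when C1s, a protease carried with the protease C1r by C1q, cuts C4 and C2. Its alternative arm runs through factor B, and both meet at C3, whose cleavage products coat surfaces and recruit leukocytes. Host cells are guarded by soluble inhibitors such as the C1 inhibitor and by membrane proteins such as CD55. Connective tissue cells are known to make many of these proteins themselves.

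The libraries held 70266983 UMIs in 6076 barcodes (untreated) and 60392557 UMIs in 4562 barcodes (calcitriol), of which 4370 and 3693 cells, with median depths of 11064 and 12258 UMIs, entered the comparison. Haemoglobin transcripts took 41.2% of the counts without and 10.6% with calcitriol, and 8 barcodes occurred in both, 2 of them among the cells used. The 5 classes held, in untreated and calcitriol cells, 436 and 660 fibroblast-like, 373 and 481 tendon-like, 353 and 334 osteoblast-like, 437 and 1029 chondrocyte-like, and 200 and 310 endothelial-like cells. The names were given by a marker criterion, so that meeting it is a description of the classes and no test of their names. The fibroblast-like cluster met it for 9 of 10 markers, the chondrocyte-like clusters for 10 to 12 of 12, the osteoblast-like for 10 of 10, the tendon-like for 7 or 8 of 8 and the endothelial-like for 9 or 10 of 10. One tendon-like cluster also met it for 7 of 10 fibroblast markers, and another, led by *Igfbp2* and *Sfrp2*, had no tendon marker among its 10 leading genes. The chondrocyte-like cluster led by *Col10a1* also met it for 8 of 10 osteoblast markers. A cluster of 260 cells that met it for 11 of 12 chondrocyte and 8 of 10 osteoblast markers stayed unnamed and outside the classes. The leukocyte gene *Ptprc* was seen in at most 1 cell of any of these classes in either library.

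In the GRCm38 assembly, *C3* lies on chromosome 17 from 57203970 to 57228136 (ENSMUSG00000024164), and *C4b* (34728380 to 34743882, ENSMUSG00000073418) and *Cfb* (34856374 to 34862518, ENSMUSG00000090231) lie 112491 bases apart on the same chromosome, all on the minus strand. *C1ra* (124512405 to 124523443, plus strand, ENSMUSG00000055172) and *C1s1* (124530345 to 124542359, minus strand, ENSMUSG00000038521) lie 6901 bases apart on chromosome 6. *Serping1* lies on the minus strand of chromosome 2 from 84765387 to 84775444 (ENSMUSG00000023224), and *Cd55* on that of chromosome 1 from 130439027 to 130462744 (ENSMUSG00000026399). All 7 are protein-coding genes, and the reads counted here come from the 3′ ends of their transcripts, are summed per gene and do not separate exons. *C4b*, *C1s1*, *C1ra* and *Cd55* have the closely related neighbours *C4a*, *C1s2*, *C1rb* and *Cd55b*, and how many reads fitted both genes of a pair was not measured. In fibroblast-like cells the neighbours had 1 and 4 UMIs (*C4a*), 36 and 42 (*C1s2*), 0 and 1 (*C1rb*) and 1 and 2 (*Cd55b*) in untreated and calcitriol cells. *Cfb* shares its locus with the annotated read-through gene *Gm20547*, which is no row of the count tables.

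RefSeq promoter windows were at hand for *C3*, *C1s1*, *C1ra* and *Cd55*, and the 250 bases before the start site are shown for *C3* and *Cd55* because *C3* was higher and *Cd55* lower with calcitriol in several classes. The *C3* window is chr17:57228137-57228386 and the *Cd55* window chr1:130462745-130462994, both on the minus strand of GRCm38.p6, printed 5′ to 3′. Capitals mark the only match to any of 5 motifs searched on both strands.
C3: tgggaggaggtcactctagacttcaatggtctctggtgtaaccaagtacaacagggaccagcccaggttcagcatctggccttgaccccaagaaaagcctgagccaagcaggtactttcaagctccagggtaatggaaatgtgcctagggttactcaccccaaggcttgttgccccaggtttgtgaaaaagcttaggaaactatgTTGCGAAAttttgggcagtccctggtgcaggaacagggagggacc
Cd55: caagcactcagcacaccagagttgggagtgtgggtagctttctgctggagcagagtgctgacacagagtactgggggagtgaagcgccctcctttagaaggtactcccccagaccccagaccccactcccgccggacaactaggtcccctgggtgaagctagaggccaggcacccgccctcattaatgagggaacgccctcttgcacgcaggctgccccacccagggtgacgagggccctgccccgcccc
The match in *C3*, TTGCGAAA, begins 45 bases before the start and fits the C/EBP-type pattern TTGCNNAA, which 9.56% of the 32851 RefSeq windows of this length hold. The *Cd55* and *C1ra* windows held no match, and 1 of the 2 *C1s1* windows held a C/EBP-type match, TTAGGCAA, 242 bases before the start. The *C1ra* window, chr6:124512371-124512620, goes by the RefSeq start and lies mostly inside the gene as placed above, from 124512405. The other patterns, GGG and TTCC with 3 bases between them (NF-κB type, 4.65% of windows), TTCNNNGAA (GAS type, 7.02%), TTTC repeated after 2 bases (interferon-response type, 2.98%) and the DR3 vitamin D response element (0.0396%), were in none of these windows.

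Each member had its highest level of the 5 classes in fibroblast-like cells in both libraries. Of the *C1ra* UMIs, these cells held 901 of 1897 in the untreated and 2102 of 4472 in the calcitriol library. Some other groups of cells were higher for single members. Untreated synovial lining-like cells, outside the 5 classes, were at 459 CPM of *Cd55*, against 393 in fibroblast-like cells. The tendon-like *Igfbp2* and *Sfrp2* cluster was at 272 CPM of *C1ra* with calcitriol, against 240. Summed, the members made up 3289 CPM of the untreated and 3721 of the calcitriol fibroblast-like cells, against 870 and 1020 in tendon-like, 291 and 507 in osteoblast-like, 71.2 and 131 in chondrocyte-like and 157 and 156 in endothelial-like cells. In erythroid-like cells, which serve as a measure of free RNA for every member but *Cd55* (red cells carry CD55), no member other than *Cd55* passed 2.69 CPM in either library. Untreated fibroblast-like cells had UMIs of a median of 5 members per cell, and 86.7% of them had 3 or more, compared with 88.6% of calcitriol cells. After each cell was thinned to 2000 UMIs these shares were 44.7% and 52.5%.

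**Figure D1:**
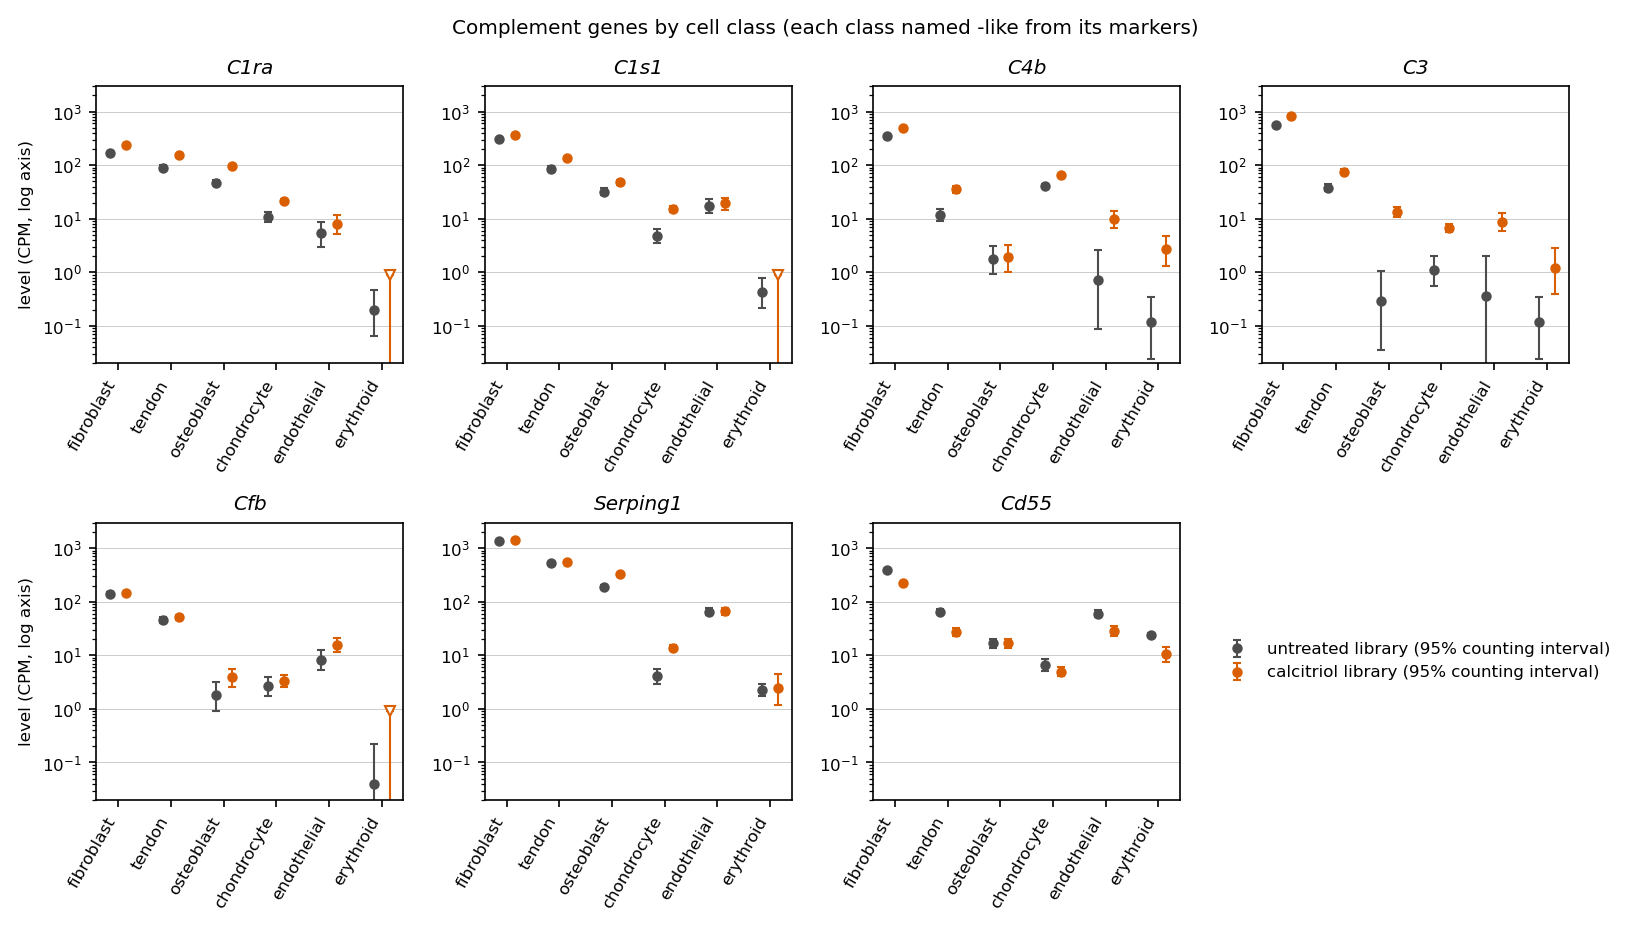
Level of each gene (CPM, log axis) in the untreated (grey) and calcitriol (orange) library for 5 classes and erythroid-like cells, with 95% counting intervals; open triangles mark the upper bound where no UMI was seen. Every gene is highest in fibroblast-like cells among the classes drawn, and *C3* in osteoblast-like cells is at 0.298 in the untreated and 13.5 in the calcitriol library.

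The proteases of the C1 complex, C1r and C1s, are encoded by *C1ra* and *C1s1*. *C1ra* was at 168 CPM in untreated and 240 in calcitriol fibroblast-like cells, at 90.2 and 153 in tendon-like, 47.2 and 95.2 in osteoblast-like, 10.8 and 21.6 in chondrocyte-like, and 5.39 and 7.92 in endothelial-like cells. The calcitriol value was the higher in every class, with log2 ratios of 0.51 (0.40 to 0.63), 0.76 (0.59 to 0.93), 1.01 (0.82 to 1.21) and 0.99 (0.68 to 1.31) in the first 4. The endothelial-like cells had only 15 and 25 UMIs, too few to compare. *C1ra* was called higher in osteoblast-like cells, just past the limit, and stood just short of it in chondrocyte-like cells. It passed the limit in 13 of 17 other settings of the processing in osteoblast-like and in 5 of 17 in chondrocyte-like cells.

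*C1s1* was at 307 and 371 CPM in untreated and calcitriol fibroblast-like cells, 86.2 and 133 in tendon-like, 32.1 and 48.3 in osteoblast-like, 4.86 and 15.2 in chondrocyte-like, and 17.6 and 19.3 in endothelial-like cells. It was called higher in chondrocyte-like cells, at a ratio of 1.64 (1.2 to 2.11) that ran from 1.33 to 2.67 over 16 other settings, and the share of cells with a UMI was 8.01% of untreated and 16.3% of calcitriol cells there. The ratio was unequal among their clusters. It was 0.58 (0.01 to 1.18) in the largest, led by *Msmp* and *Cytl1*, with 32 and 138 UMIs. In the cluster led by *Chil1* and *Notum* it was 2.18 (1.33 to 3.17), with 12 and 131 UMIs. The clusters led by *Serpina1a* and by *Col10a1* held only 1 and 29, and 3 and 14 UMIs. Ratios of *C1s1* in fibroblast-like, tendon-like and osteoblast-like cells were 0.28, 0.63 and 0.59, with intervals above 0, while the endothelial-like interval ran from -0.43 to 0.71. Levels of *C1ra* and *C1s1* over the classes and libraries went together (Pearson r = 0.948 of log2 levels with 10 CPM added). The 12 values come from 6 classes, erythroid-like cells among them, and share libraries and depths.

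C4, which C1s cuts, is encoded by *C4b*. It was at 347 and 485 CPM in untreated and calcitriol fibroblast-like cells, a ratio of 0.48 (0.40 to 0.56), and at 41.1 and 65.6 in chondrocyte-like cells, a ratio of 0.67 (0.51 to 0.84). Among the 5 classes, chondrocyte-like cells came second to fibroblast-like cells for this gene alone. Among their clusters the ratio was 2.19 (1.47 to 2.99) in the cluster led by *Col10a1*, a gene of hypertrophic cartilage, and 1.53 (1.2 to 1.87) in the cluster led by *Serpina1a* and *Matn3*, from 6.18 to 28.3 and from 38.2 to 110.0 CPM. In the largest cluster, led by *Msmp* and *Cytl1*, it was -0.22 (-0.45 to 0.02), at 68.4 and 58.9 CPM.

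In tendon-like cells *C4b* was called higher, with 57 UMIs in untreated and 217 in calcitriol cells (11.9 and 35.5 CPM, ratio 1.57, 1.15 to 2.02). Most of the difference lay in the cluster led by *Igfbp2* and *Sfrp2*, at 7.21 and 75.7 CPM, and without that cluster the ratio was 0.16 (-0.41 to 0.74). Osteoblast-like cells had 12 and 13 UMIs and endothelial-like cells 2 and 31, 19 of the latter in cells that also held UMIs of 2 or more of 5 fibroblast markers (*Dpt*, *Clec3b*, *Pi16*, *Mfap5* and *Dpp4*).

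*C3* encodes the protein on which all arms of the cascade converge. In fibroblast-like cells it was at 552 CPM in the untreated and 826 in the calcitriol library, a ratio of 0.58 (0.52 to 0.64), and 44.95% and 55.0% of the cells had a UMI. It was spread unevenly among these cells, since the top 44 of 436 untreated cells held 65.7% and the top 66 of 660 calcitriol cells 56.1% of its UMIs, with at most 115 and 216 UMIs in a cell. Cells with a UMI of *Pi16* were at 906 and 1243 CPM and those without at 458 and 727. Complement genes had been kept out of the genes used for clustering.

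At a finer resolution of 1.2, which was looked at after its values had been seen, the fibroblast-like cells fell into a cluster of 337 untreated and 496 calcitriol cells led by *Mfap5* and *Hmcn2*, and a smaller one of 97 and 164 cells led by *C3*, the chemokines *Ccl2* and *Ccl7*, and *C4b*. *C3* was at 197 and 316 CPM in the former and at 1709 and 2255 in the latter, and *C4b* at 100.1 and 148 in the former and 1145 and 1428 in the latter. *Cd55* was the other way about, at 479 and 273 in the *Mfap5* cluster and 122 and 100.2 in the *C3* cluster. Ratios of *C3* were 0.68 (0.56 to 0.80) and 0.40 (0.33 to 0.47) in these clusters. *Cfb*, which encodes factor B, was at 87.8 and 60.3 CPM in the *Mfap5* cluster, a ratio of -0.54 (-0.75 to -0.33), and at 307 and 373 in the *C3* cluster, a ratio of 0.28 (0.11 to 0.46).

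In osteoblast-like cells 2 UMIs of *C3* were counted among 353 untreated cells and 91 among 334 calcitriol cells, or 0.298 and 13.5 CPM. This ratio, 5.50 (3.61 to 8.57), was the largest of any member in the classes compared, and was 4.09 with libraries merged without integration and 2.53 with classes set cell by cell from marker UMIs. The 91 UMIs came from 20 cells (5.99%, 3.70% to 9.10%), 6 of which held 5 or more, with 27, 14 and 9 in the highest 3, and the 41 UMIs of the other 17 still exceeded the untreated count. None of these 20 cells had UMIs of 2 or more of the 5 fibroblast markers, and 19 had none at all. These 5 were all lower with calcitriol in osteoblast-like cells. The other fibroblast markers, among them *Gsn* (866 and 2270 CPM) and *Pdgfra* (79.8 and 180), were all higher there and did not enter this count. Both osteoblast-like clusters took part in the *C3* difference, at 0.233 and 8.30 CPM in the cluster led by *Postn* and 0.412 and 22.9 in the cluster led by *Bglap*, the osteocalcin gene of mature osteoblasts. In erythroid-like cells *C3* was at 0.118 and 1.22 CPM, and 0.130% and 1.15% of those cells, of median depth 10422 and 9869 UMIs against 16981 and 16781 in osteoblast-like cells, had a UMI. The osteocyte-like cells, few in number, had 0 UMIs of *C3* in 22 untreated cells (which, taking 3 counts as the limit, allows up to 13.6% of cells with a UMI) and 21 UMIs in 68 calcitriol cells, but 20 of the 21 lay in 1 cell.

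Chondrocyte-like cells had 11 and 137 UMIs of *C3* (1.11 and 6.67 CPM), a ratio of 2.58 (1.70 to 3.62). Here 64 of the 137 UMIs lay in 14 cells with 2 or more of the 5 fibroblast markers, and the ratio was 1.70 (0.77 to 2.76) without such cells and 1.61 (0.68 to 2.67) without barcodes scored as doublets. The cluster led by *Chil1* and *Notum* held 7 and 81 of these UMIs and the *Col10a1* cluster 1 and 37. Tendon-like cells had 183 and 466 UMIs (38.3 and 76.2 CPM), a ratio of 0.99 (0.74 to 1.25) that stood just under the limit. It was unequal among their clusters: 14.4 and 129 CPM (ratio 3.17, 2.54 to 3.87) in the *Igfbp2* and *Sfrp2* cluster, against 75.1 and 76.1 (0.02, -0.29 to 0.33) in the cluster led by *Angptl7* and *Kera*. When the libraries were merged without integration, which regrouped these cells, the *C3* ratio of the class was -0.20. The value also rested on which cells were counted, since it was 0.02 without the *Igfbp2* and *Sfrp2* cluster and 2.87 (2.31 to 3.49) without cells that held 2 or more of the 5 fibroblast markers, which made up 126 of 373 untreated and 110 of 481 calcitriol tendon-like cells and held 155 of the 183 and 178 of the 466 UMIs. Endothelial-like cells had 1 and 28 UMIs, 22 of the latter in a single cell.

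Factor B, encoded by *Cfb*, is the protease of the alternative arm. Its level in fibroblast-like cells was 140 CPM in untreated and 142 in calcitriol cells, a ratio of 0.03 (-0.11 to 0.16) that joins the opposite ratios of its finer clusters. Of the cells, 47.7% and 40.6% had a UMI of *Cfb*. The top 44 of 436 untreated cells held 52.3% and the top 66 of 660 calcitriol cells 65.1% of its UMIs, with at most 26 and 73 in a cell. *Pi16* marks a subset of fibroblasts, and cells with a UMI of it had 161 and 250 CPM (0.63, 0.38 to 0.89) while those without had 134 and 117 (-0.20, -0.36 to -0.04). In tendon-like cells it was at 44.99 and 51.5 CPM, but 133 of the 315 calcitriol UMIs came from 1 cell, and the ratio of 0.19 became -0.45 (-0.75 to -0.16) without the highest cell of each library. Endothelial-like cells held 23 and 50 UMIs (8.27 and 15.8 CPM), a ratio of 0.94 (0.20 to 1.72), and chondrocyte-like cells 26 and 69, a ratio of 0.35 (-0.32 to 1.06). Osteoblast-like cells held 12 and 26.

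**Figure D2:**
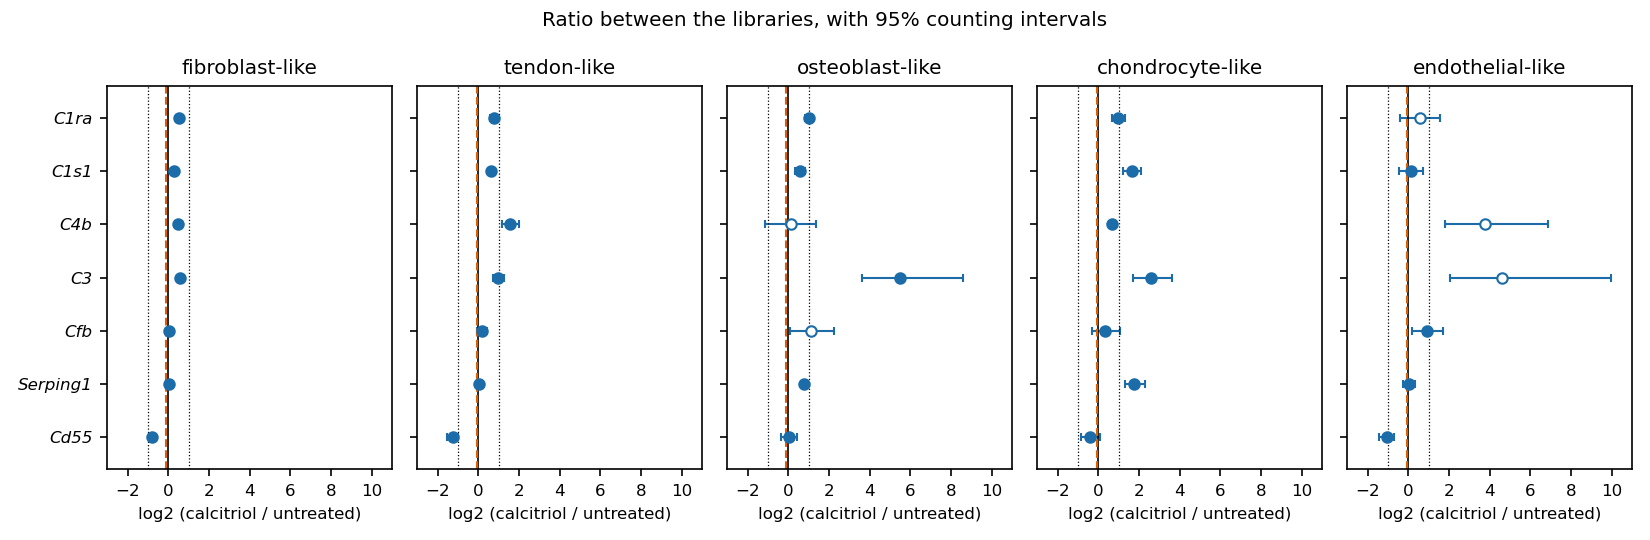
Log2 ratio of calcitriol over untreated for each gene in 5 classes, with 95% counting intervals; open circles have fewer than 50 UMIs, dotted lines mark 2-fold and the dashed orange line the median of all genes compared. *C3* in osteoblast-like cells stands at 5.50 (2.53 with classes set cell by cell), and *Cd55* lies at -0.79, -1.25 and -1.06 in fibroblast-like, tendon-like and endothelial-like cells.

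The C1 inhibitor, which blocks C1r and C1s, is encoded by *Serping1*. It was at 1382 CPM in untreated and 1428 in calcitriol fibroblast-like cells, at 533 and 543 in tendon-like cells, and at 65.1 and 65.9 in endothelial-like cells, with ratios of 0.05 (0.01 to 0.09), 0.03 (-0.05 to 0.10) and 0.02 (-0.28 to 0.31). The tendon-like ratio ran from -0.46 to 0.29 over 18 other settings, 10 of them below 0. Of the tendon-like UMIs, 1370 of 2548 untreated and 1304 of 3324 calcitriol lay in cells with 2 or more of the 5 fibroblast markers. In osteoblast-like cells the values were 192 and 328 CPM, a ratio of 0.78 (0.68 to 0.88), and both clusters gave a like value (0.73 for *Postn*, 0.91 for *Bglap*). Within the endothelial-like class the cluster of blood vessel genes (*Fabp4*, *Flt1*) was at 63.1 and 39.8 CPM and the cluster of lymphatic genes (*Ccl21a*, *Lyve1*) at 69.8 and 137, so that the equal class levels were made of a ratio of -0.67 (-1.07 to -0.27) and one of 0.98 (0.50 to 1.46). These rest on 125 and 92, and on 56 and 116 UMIs. In the class, 38 of 181 untreated UMIs lay in 2 cells and 46 of 208 calcitriol UMIs in 7 cells with 2 or more of the 5 fibroblast markers. How these cells fell between the clusters was not looked at. *Serping1* was called higher in chondrocyte-like cells, at 4.05 and 13.9 CPM (1.78, 1.30 to 2.30), but 170 of their 286 calcitriol UMIs lay in 14 cells with 2 or more of the 5 fibroblast markers. The ratio was 0.82 without such cells and 0.48 (-0.26 to 1.27) without barcodes scored as doublets.

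CD55 is a membrane protein that breaks up the enzymes that cut C3. *Cd55* was lower in the calcitriol library in 3 of the 5 classes, with intervals below 0. It was at 393 CPM in untreated and 228 in calcitriol fibroblast-like cells, a ratio of -0.79 (-0.88 to -0.70). Those with *Pi16* were at 617 and 308 (-1.004, -1.17 to -0.84) and those without at 334 and 208 (-0.68, -0.79 to -0.57). In the finer clusters led by *Mfap5* and by *C3* the ratios were -0.81 (-0.90 to -0.72) and -0.29 (-0.59 to 0.01). Of the fibroblast-like cells, 60.8% and 53.8% had a UMI. The top 44 of 436 untreated cells held 70.3% and the top 66 of 660 calcitriol cells 66.1% of the UMIs, with at most 149 and 115 in a cell. *Cd55* was called lower in tendon-like cells, at 64.9 and 27.3 CPM (-1.25, -1.53 to -0.97), and in endothelial-like cells, at 60.02 and 28.8 (-1.06, -1.44 to -0.68), where 76 of the 310 calcitriol cells had fewer than 2000 UMIs. In the tendon-like class the cluster led by *Angptl7* gave -1.199 (-1.49 to -0.91), with 284 and 151 UMIs. That led by *Igfbp2* gave -1.17 (-2.24 to -0.17) on only 24 and 14 UMIs, and that led by *Chodl* held 2 and 2. In the endothelial-like class the blood and the lymphatic cluster gave -1.45 and -0.78, with 61 and 26, and 106 and 65 UMIs.

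Synovial lining-like cells, outside the 5 classes, had *Cd55* in 24 of 25 untreated and 85 of 95 calcitriol cells, at 459 and 227 CPM (-1.02, -1.25 to -0.78), and 3 of the 5 members compared there, *Cd55*, *C4b* and *C1s1*, were past 2-fold, against 9.69% of genes. Of these, *C4b* and *C1s1* rest on 8 untreated UMIs each. Osteoblast-like cells stood apart for *Cd55*, with 112 and 114 UMIs, 16.7 and 16.9 CPM, and a ratio of 0.02 (-0.37 to 0.41), whose interval does not meet those of the fibroblast-like, tendon-like or endothelial-like cells. Chondrocyte-like cells gave -0.41 (-0.87 to 0.06). In erythroid-like cells *Cd55* was at 24.4 and 10.5 CPM, while the mixture of erythroid clusters also differed between the libraries.

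**Figure D3:**
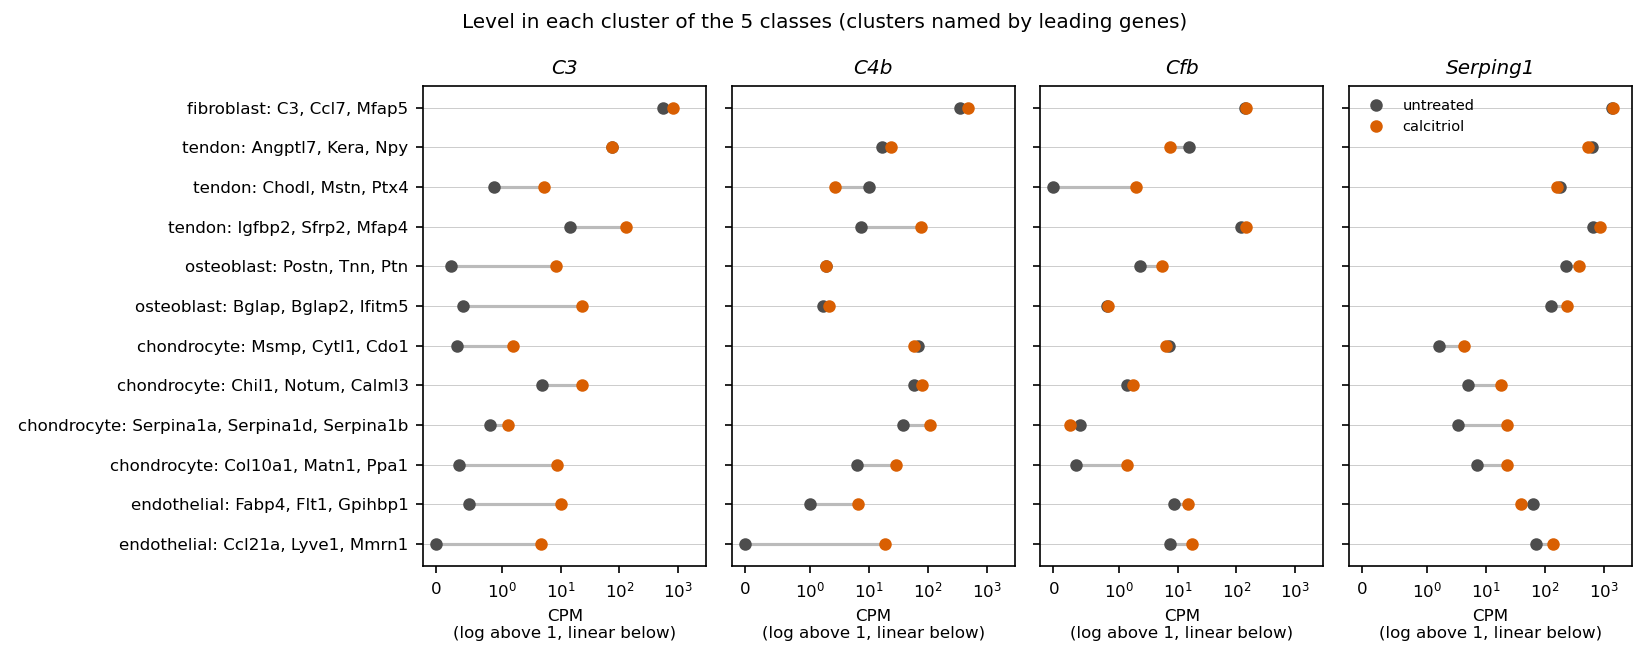
Level (CPM, log above 1) of 4 genes in each cluster of the 5 classes, in the untreated (grey) and calcitriol (orange) library. *C3* is at 14.4 and 129 in the tendon-like *Igfbp2* cluster but at 75.1 and 76.1 in the *Angptl7* cluster, and *Serping1* lies in opposite order in the endothelial-like clusters.

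The members called past 2-fold were 0 of 7 in fibroblast-like cells (background among all genes compared there 6.11%), 2 of 7 in tendon-like (7.25%), 2 of 5 in osteoblast-like (6.00%), 3 of 7 in chondrocyte-like (7.87%) and 1 of 4 in endothelial-like cells (4.42%). The others did not reach 50 UMIs. *C4b* was the member called higher in tendon-like cells, *C3* and *C1ra* in osteoblast-like, and *C3*, *C1s1* and *Serping1* in chondrocyte-like cells, where 3.07%, 3.39% and 3.48% of all genes compared were called higher (2.94% in fibroblast-like and 1.81% in endothelial-like cells). *Cd55* was the only one called lower, in tendon-like and endothelial-like cells, where 4.18% and 2.62% of genes were (3.17% in fibroblast-like, 2.61% in osteoblast-like and 4.39% in chondrocyte-like cells). The median log2 ratio of the members was 0.28, 0.63, 0.78, 0.99 and 0.08 in the same order of classes, against -0.09, -0.06, -0.10, -0.06 and -0.05 over all genes compared. In fibroblast-like cells 5 of the 7 intervals lay above 0 and 1 below, where 1688 and 2901 of 10118 genes did so. Intervals are narrower at higher counts, and the genes were not matched by count. *Serping1* was among the 5 at a ratio of only 0.05, on 7407 and 12510 UMIs.

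Other values moved between the libraries along with these. The 10 fibroblast markers together came to 1906 and 2830 CPM in untreated and calcitriol chondrocyte-like cells, 7153 and 9072 in osteoblast-like, 6263 and 9298 in tendon-like and 1593 and 1755 in endothelial-like cells. Of these markers 6, 4, 3 and 2 had an interval above 0 and 0, 3, 5 and 3 below. Most of each sum came from *Gsn* and *Lum*, or in endothelial-like cells from *Ly6a* and *Cd34*. In osteoblast-like cells *Lum* was at 6102 and 6539, *Gsn* at 866 and 2270, *Pdgfra* at 79.8 and 180, *Ly6a* at 42.0 and 53.8 and *Cd34* at 1.04 and 2.38 CPM. Lower with calcitriol there were *Dpt* at 48.8 and 22.7, *Mfap5* at 8.48 and 2.97, *Clec3b* at 4.17 and 1.04, *Pi16* at 0.595 and 0.149 and *Dpp4* at 0.149 and 0 CPM. Of 20 genes known to respond to tissue dissociation, 8, 16, 14, 20 and 13 had an interval above 0 in fibroblast-like, tendon-like, osteoblast-like, chondrocyte-like and endothelial-like cells and 10, 3, 5, 0 and 3 an interval below 0, with medians of -0.06, 0.37, 0.30, 0.59 and 0.20. Of 12 glucocorticoid-response genes, 10 to 12 had an interval above 0 in each class and 1, in chondrocyte-like cells, an interval below 0, with medians of 0.68 to 0.86. Among all genes compared, intervals above 0 were 1688 of 10118, 1710 of 9542, 1455 of 9885, 2141 of 11503 and 1160 of 8521 in the same order of classes. Those below 0 were 2901, 2519, 2691, 3509 and 1602. All genes compared were not matched to these lists by UMI count, on which the width of an interval depends. The shares of all genes called higher or lower are those given above. Of 16 acute-phase genes, 14, 12, 11, 13 and 10 could be compared in the same order of classes, where 4, 5, 2, 5 and 2 were called higher and 1, 0, 1, 1 and 2 lower, with medians of 0.05, 0.50, -0.02, 0.24 and 0.21. Of 7 genes listed for vitamin D response, 3, 3, 4, 4 and 1 could be compared in fibroblast-like, tendon-like, osteoblast-like, chondrocyte-like and endothelial-like cells, and 2, 1, 3, 1 and 1 were called higher and 0 lower. The only one called in tendon-like and endothelial-like cells was *Spp1*, at 1867 and 4498, and 33.8 and 812 CPM. It was at 9815 and 46130 CPM in osteoblast-like cells, and the share of free RNA in its counts elsewhere was not measured. *Cyp24a1* could be compared in none of these classes. Of 19 interferon-response genes, 16, 14, 14, 12 and 18 could be compared in the same classes, with 2, 4, 1, 3 and 0 called higher and 1, 1, 2, 2 and 1 lower. Their part in the complement values was not tested.

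The rest of the complement system was read from 49 further genes. In fibroblast-like, tendon-like, osteoblast-like, chondrocyte-like and endothelial-like cells 13, 7, 8, 10 and 8 of them could be compared, and 0, 0, 1, 2 and 0 were called higher and 1, 0, 0, 0 and 0 lower. Of all genes compared, 2.94%, 3.07%, 3.39%, 3.48% and 1.81% were called higher and 3.17%, 4.18%, 2.61%, 4.39% and 2.62% lower.

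*Clu* encodes clusterin, which restrains the terminal membrane attack complex. It was called higher in osteoblast-like cells, at 84.2 and 261 CPM (1.63, 1.49 to 1.77), and in chondrocyte-like cells, at 1623 and 3402 (1.07, 1.04 to 1.09), whereas fibroblast-like cells had 179 and 113 (-0.67, -0.80 to -0.54). Tendon-like cells had 1631 and 2218 (0.44) and endothelial-like cells 84.5 and 66.2 (-0.35). The chondrocyte-like ratio stood just past the limit. *Clu* was among the 10 leading genes of the cluster led by *Msmp* and *Cytl1*. That cluster supplied 200 of 437 chondrocyte-like cells without calcitriol and 570 of 1029 with it. Whether this change of mixture entered the *Clu* ratio was not tested, and its levels in single clusters were not looked at. *C5ar2*, which encodes a receptor of the C5a peptide, was called higher in chondrocyte-like cells, at 1.42 and 12.9 CPM (3.19, 2.42 to 4.08). *Colec10*, which encodes a collectin of the lectin arm, was called lower in fibroblast-like cells, at 9.14 and 0.913 CPM (-3.32, -4.61 to -2.23).

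The scavenger collectin gene *Colec12* was at 199 and 206 CPM in fibroblast-like cells (0.05) and at 240 and 333 in tendon-like, 227 and 330 in osteoblast-like, and 172 and 260 in chondrocyte-like cells (0.47, 0.54 and 0.60). *C2*, which C1s cuts beside C4, was at 13.99 and 24.2 in osteoblast-like cells (0.79, 0.42 to 1.17) and at 20.9 and 15.0 in tendon-like cells (-0.48, -0.90 to -0.05). *Cd93* in endothelial-like cells was at 713 and 478 CPM (-0.58, -0.68 to -0.48), and *Cr1l* there at 120 and 123 (0.03). In fibroblast-like cells *Cr1l* was at 72.6 and 84.3 (0.22, 0.04 to 0.40). *Cd59a*, which encodes a membrane inhibitor of the terminal complex, was at 34.5 and 60.8 in endothelial-like cells (0.82, 0.46 to 1.19) but 16.7 and 12.03 in osteoblast-like cells (-0.47, -0.90 to -0.05), and *Vtn*, the gene of vitronectin, at 18.0 and 27.9 in endothelial-like cells (0.63, 0.12 to 1.16). The intervals of *Vtn* (0.77), *Cd59a* (0.68) and *C1rl* (0.31) in fibroblast-like cells, of *Susd4* in endothelial-like cells (0.62), of *Cd59a* in tendon-like cells (-0.19) and of *Cd93* in chondrocyte-like cells (-0.22) included 0. *C1qbp* lay between -0.28 and 0.18 in the 5 classes. The least ratios of the other classes belonged to *C1rl* (-0.31 in chondrocyte-like and -0.71 in tendon-like cells), *C5ar1* (-0.24 in chondrocyte-like), *Masp1* (-0.73 in osteoblast-like) and *C1s2* (-0.49 in fibroblast-like cells), and of these intervals only that of *C1rl* in tendon-like cells left out 0.

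**Figure D4:**
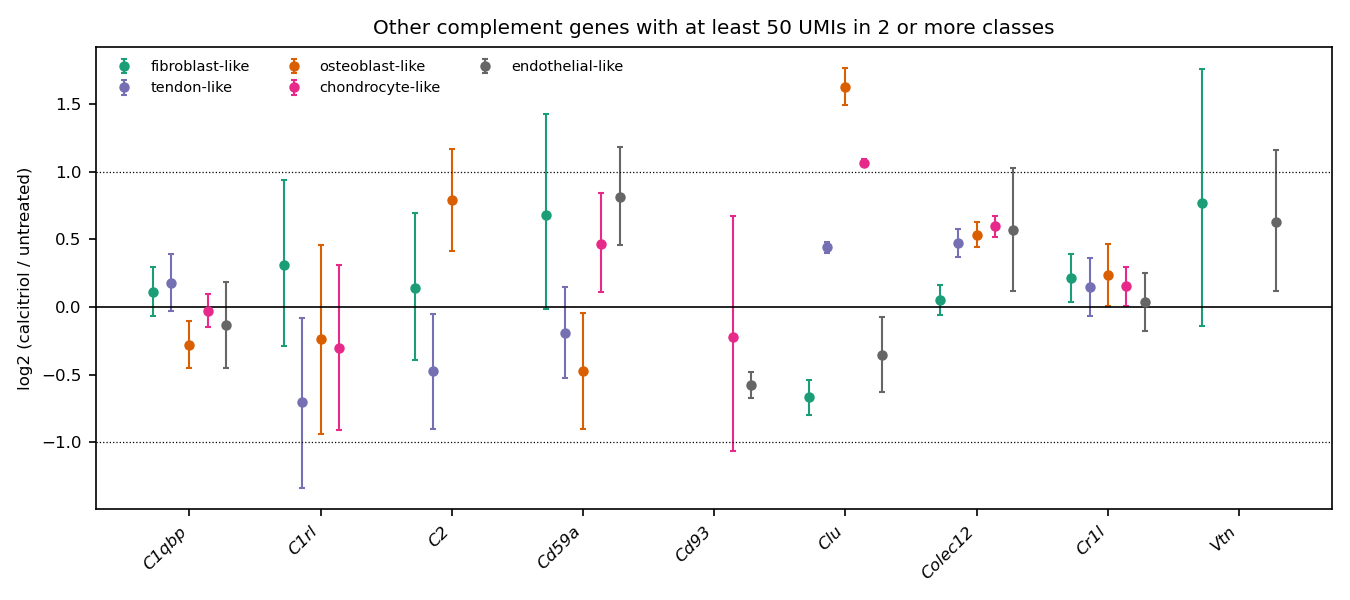
Log2 ratio of calcitriol over untreated for 9 other complement genes with at least 50 UMIs in 2 or more of the 5 classes, with 95% counting intervals and dotted lines at 2-fold. Only genes named for a high level or a large ratio were drawn, so those named solely for a small ratio are absent. *Clu* runs from -0.67 in fibroblast-like to 1.63 in osteoblast-like cells.

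Pearson's r was taken of log2 (CPM + 10) over 12 values, which share libraries and depth. They come from 6 classes with 50 or more cells in each library, erythroid-like cells among them. The genes whose levels followed each member most closely were named by this r. For *C3* they were *Scara5* (0.994), *Abca8a* (0.987) and *Cyp2f2* (0.976). For *C1ra* they were *Pdgfra* (0.988), *Arhgap24* and *Naaladl2*, for *C1s1* *Rarres2* (0.979), *Ddhd1* and *Ang*, for *Cfb* *Cygb* (0.986), *Mfap5* and *Mgst1*, and for *Serping1* *Nnmt* (0.977), *Pcdh7* and *Rnase4*. The closest to *Cd55* were *St3gal2* (0.967), *Glipr2* and *Cadm3*, and to *C4b*, *Efemp1* (0.946), *Ntrk2* and *Sema3e*. Among the members themselves r was highest for *C1s1* and *Serping1* (0.965) and lowest for *C4b* and *Serping1* (0.527).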

How the data were processed

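Femoral cells were profiled with 10x Genomics 3′ chemistry. The deposited matrices hold UMI counts per gene and barcode, which per the labels were made with Cell Ranger 4.0.0 on mm10 (the authors also used Seurat 3.2.2). Here, barcodes with at least 200 genes were clustered in each library with Seurat 5.3.0, and 1 cluster per library, past all of 3 limits (median over 10% mitochondrial UMIs, under 1000 genes, under 2000 UMIs; 263 and 227 barcodes), was left out. The libraries were joined by anchors (2000 variable genes without the 17 complement genes among them, 30 components, resolution 0.8), which gave 26 clusters. Doublets were scored against simulated pairs (187 and 130 barcodes) and kept.

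A marker counted for a cluster if at least 10% of its cells and 50 UMIs held it and it was at least 2-fold (pseudocount 10 CPM) over the other clusters. Markers were counted against all other clusters and then against those not given the class at first. The class with the largest share of its list, at least 3 markers, and no more of another class among the 10 leading genes gave the name, with "-like" added. This rule was the last of 4 tried after the clusters had been seen, and was chosen by how the names fitted the leading genes; pooled levels of the members per cluster, without their split by library, had been seen by then. Of 26 clusters 2 stayed unnamed. Osteocyte-like cells rest on 5 of 7 osteocyte markers, beside 7 of 10 osteoblast markers.

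Counts were summed per class and library. Levels have exact Poisson, shares Clopper-Pearson and ratios exact conditional binomial 95% intervals. The ratios were checked on simulated counts with Poisson error alone, which their intervals assume. Such counts cannot show how the intervals do where UMIs gather in few cells. The alternatives are given further on. The members, lists and named genes were chosen with earlier results of these data known: the members, their copies, for each class the 3 complement genes of highest level, largest and smallest ratio, and the 3 genes closest to each member. Positions are from GENCODE vM21. 1 gene of the complement list is not reported here.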

Additional observations from a re-analysis of the deposited data

Results flagged for a closer look

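Several log2 ratios formed pairs in which groups of cells lay on opposite sides of 0, each with an interval of counting error that left out 0. The differences themselves were not tested, and each rests on 1 library per group. *Cfb* was at 0.63 in fibroblast-like cells with *Pi16* and at -0.20 in those without it. At the finer resolution it was at -0.54 in the fibroblast-like cluster led by *Mfap5* and *Hmcn2* and at 0.28 in that led by *C3* and *Ccl2*, a split looked at after its values had been seen. In tendon-like cells *Cfb* was at 0.29 in the cluster led by *Igfbp2* and *Sfrp2*, where 133 of 293 calcitriol UMIs came from 1 cell, and at -1.08 in the cluster led by *Angptl7* and *Kera*. The 0.29 leaned on that cell, and without the highest cell of each library the *Cfb* ratio of the class lay below 0, as given above. *Serping1* was at 0.37 and -0.24 in the *Igfbp2* and the *Angptl7* cluster. In endothelial-like cells *Serping1* was at 0.98 in the lymphatic cluster led by *Ccl21a* and *Lyve1*, of 37 untreated and 39 calcitriol cells, and at -0.67 in the cluster led by *Fabp4* and *Flt1*. In this class 38 of 181 untreated and 46 of 208 calcitriol UMIs lay in a few cells with 2 or more fibroblast markers.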

How the results depend on the processing

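No paired analysis was possible because each group was 1 library. Medians and counts of the members, recomputed under planned settings, stayed close to the reported value in 122 cases and moved in 18, and under settings added after the data had been seen in 23 and 7. For ratios of single members these were 371 and 34, and 74 and 15. No called value changed its direction. In chondrocyte-like cells the median was 1.68 with 5 members past 2-fold both at resolution 1.2 and with clusters named by the number of markers in 1 pass (6 members compared). The class then held fewer cells, 237 untreated and 456 calcitriol at resolution 1.2 and 237 and 459 by number in 1 pass, against 437 and 1029. The median there was 0.66 without doublets, and 1 of 2 members passed with cells thinned to 2000 UMIs. In tendon-like cells the median and the count were 0.27 and 1 with libraries merged without integration, 0.38 and 1 with classes set cell by cell from marker UMIs, 0.34 and 1 with thinned cells, and 0.02 (0.019) and 1 without the *Igfbp2* and *Sfrp2* cluster, and the median was 0.38 without cells that held 2 or more fibroblast markers. In osteoblast-like cells they were 0.63 and 1 with the mean of the cells' own CPM and 0.56 and 1 with names by number in 1 pass, the median was 1.12 with thinned cells, and the count was 1 with totals that left out haemoglobin and mitochondrial genes. With names by number in 1 pass this class held 436 untreated and 511 calcitriol cells, against 353 and 334. The median in fibroblast-like cells was 0.16 with thinned cells. In endothelial-like cells the count was 0 with thinned cells (1 compared) and with clusters weighted alike, and 3 where 20 UMIs sufficed. The causes were not tested.

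*Cd55* stayed past 2-fold in 18 of 18 settings in tendon-like and 15 of 16 in endothelial-like cells, and *C3* in osteoblast-like cells in 16 of 16, from 2.53 (classes set cell by cell) to 6.54. *C4b* in tendon-like cells ran from 0.16 to 3.46 and *C3* there from -0.20 to 2.87. Naming was recomputed under 2 of the 3 rules that were tried and not used, and these, the 5 fibroblast markers and the cluster left out were chosen after the data had been seen. Low counts limit *C3*, *C4b* and *C1ra* in endothelial-like and *C4b* and *Cfb* in osteoblast-like cells. With 1 library of pooled mice per group, differences between animals or preparations cannot be told apart from the effect of calcitriol.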

Other observations

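Synovial lining-like cells, of which 25 were untreated and 95 treated with calcitriol, had *C4b* at 17.0 and 86.1 CPM (log2 ratio 2.34, 1.33 to 3.57), *C1s1* at 17.0 and 46.9 (1.46, 0.43 to 2.71) and *Serping1* at 483 and 584 (0.28, 0.07 to 0.48). The *C4b* values rest on 8 and 204 UMIs and those of *C1s1* on 8 and 111. Smooth muscle or pericyte-like cells (44 and 77) had *C1s1* at 254 and 307 (0.27, -0.03 to 0.58), *C1ra* at 44.4 and 88.5 (1.00, 0.32 to 1.72) and *Serping1* at 414 and 520.4 (0.33, 0.09 to 0.57), and *C1s1* was there at a level second only to fibroblast-like cells. In the clusters left out, *Serping1* was at 142 and 163 CPM in 263 untreated and 227 calcitriol barcodes. Barcodes with fewer than 200 genes held no member above 3.05 CPM.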
